A study of Mus musculus with 24 samples.

Results

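The MHC class II presentation genes H2-Aa, H2-Ab1, H2-Eb1, Cd74, Ciita, H2-DMa and H2-DMb1 were followed in mouse heart RNA after doxorubicin and hesperitin. They were looked up by gene symbol in the gene tables made at 16 h and at 72 h, and 4 of the 7 were found in both: H2-Aa, H2-Ab1, H2-Eb1 and Cd74. They stand among 10393 genes listed at 16 h and 7723 listed at 72 h, of which 7407 are in both tables. Ciita, H2-DMa and H2-DMb1 were not matched in either table and were not analysed here. The set was chosen by symbol once a measured 72 h difference was known, the lower level of H2-Aa in doxorubicin than in vehicle hearts, so the 72 h values of the members are given as a description only.

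MHC class II molecules are pairs of an alpha and a beta chain that carry peptides from endosomes to the cell surface, where CD4 T cells read them. Dendritic cells, B cells and macrophages are the main cells that make them, and in the heart resident macrophages differ in how much they carry. H2-Aa and H2-Ab1 encode the alpha and beta chain of such a pair, and H2-Eb1 encodes the beta chain of another. Cd74 encodes the invariant chain, which occupies and blocks the peptide groove and guides the complex to endosomes. H2-DM exchanges the remnant of the invariant chain for peptide. Ciita is the coactivator that switches the whole set on, often after interferon-gamma, by joining RFX, CREB and NF-Y proteins on a shared promoter module made of an X box and a Y box.

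The promoters of H2-Aa and H2-Eb1 are shown because both genes were lower in DOX than in V at both times and both windows hold X and Y box letters, in H2-Aa only in a looser form. RefSeq promoters on GRCm38.p6, from 250 bases before to 50 bases after the annotated start, were matched for 4 of the 7 genes, namely H2-Aa, H2-Eb1, H2-DMa and H2-DMb1. Capitals mark the X box letters and the Y box core of the matched pair described below, and both sequences read 5′ to 3′ in the direction of the gene. H2-Eb1 has another Y box core, on the opposite strand from base -35 to base -31, which is left in small letters. The H2-Aa promoter lies at chr17:34287774-34288073 on the minus strand and the H2-Eb1 promoter at chr17:34305617-34305916 on the plus strand.
H2-Aa: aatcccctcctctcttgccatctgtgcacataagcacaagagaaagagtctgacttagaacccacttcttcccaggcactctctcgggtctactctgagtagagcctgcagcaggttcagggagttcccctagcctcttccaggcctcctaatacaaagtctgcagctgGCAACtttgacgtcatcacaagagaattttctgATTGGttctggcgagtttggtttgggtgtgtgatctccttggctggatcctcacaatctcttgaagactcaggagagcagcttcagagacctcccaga
H2-Eb1: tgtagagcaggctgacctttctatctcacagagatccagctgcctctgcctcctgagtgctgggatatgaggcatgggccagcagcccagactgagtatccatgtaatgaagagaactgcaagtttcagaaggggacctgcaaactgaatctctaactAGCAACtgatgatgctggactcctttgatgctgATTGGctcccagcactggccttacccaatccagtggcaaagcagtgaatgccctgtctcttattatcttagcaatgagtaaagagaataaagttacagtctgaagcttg
The letters AGNAAC followed on the same strand by ATTGG, with 24 to 32 bases between them, were searched on both strands. They were found in H2-Eb1 from base -92 to base -55 relative to the start, with a gap of 27 bases, and 0.475% of 32851 mouse promoters held such a pair. H2-Aa held the looser pair GNAAC and ATTGG from base -81 to base -44, with a gap of 28 bases. Of the matched genes not shown, H2-DMb1 held the stricter pair from base -95 to base -57, and the H2-DMa promoters held neither form. The looser form was added after the sequence had been seen, it includes every match of the stricter form, and 1.54% of promoters held it. Between its capitals H2-Aa also has the letters TGACGTCA, a CREB site, from base -74 to base -67, present in 1.79% of promoters. The Y box core alone was found in 37.4% of promoters and the letters AGNAAC alone in 48.1%. A match describes the letters of the window and not the binding of a factor.

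The samples are heart tissue of mice of genotype WT. At 16 h there were 4 groups of 3 libraries: V (vehicle), H (hesperitin, 10 mg/kg/day), DOX (doxorubicin, 25 mg/kg) and DOXH (both agents at those doses). At 72 h 3 V and 3 DOX libraries were used. The series title names CISD2 activation as a strategy against doxorubicin injury, and the labels give no strain, age or sex, do not describe the vehicle and do not say how many animals stand behind a library, so a p-value reflects library-to-library spread alone, which may be technical. One DOX library at 72 h could not be tied to a single label by its number and is called the unnumbered library.

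Total counts were 9255651 to 11074450 in the V, DOX and DOXH libraries at 16 h, 17664060 to 19869050 in the H libraries, and 16607805 to 20587578 at 72 h. All 12 cardiomyocyte markers on the list had values in both tables, and their summed level was 56936 to 65385 CPM in V at 16 h. Levels are given as CPM, counts relative to the library size after its scaling by the trimmed mean of M values (TMM), done separately in each table. In the first principal component at 16 h, which held 60.8% of the variance, the DOX libraries lay between -42.2 and -29.4 and the V libraries between 18.04 and 20.7, while the DOXH libraries were scattered at -8.28, -35.1 and 17.7. In bulk tissue, fewer cells of a type and less RNA per cell cannot be told apart.

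All 4 class II transcripts were present at moderate depth and in a fixed order. Per kilobase of the longest coding transcript, the V libraries at 16 h had 60.1 ± 11.7 CPM of Cd74, 33.1 ± 9.80 of H2-Aa, 25.0 ± 6.91 of H2-Ab1 and 17.03 ± 3.86 of H2-Eb1 (SD, n = 3). The means of all the other groups had the same order, but the SDs of neighbours overlapped in several groups, H2-Ab1 and H2-Eb1 in V at 16 h among them. The invariant chain thus gave the most transcript per length throughout. H2-Aa is at chr17:34282744-34287823 on the minus strand, H2-Ab1 at chr17:34257689-34269419 and H2-Eb1 at chr17:34305867-34316674 on the plus strand, and Cd74 at chr18:60803848-60812652 on the plus strand (GRCm38, GENCODE M21). No 50-base stretch of these 4 transcripts was shared with another gene. H2-Eb1 overlaps the antisense gene Gm20513, and since the strand setting of the counting is not given in the sources used here, reads of the pair cannot be told apart.

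All 4 class II transcripts were lower after doxorubicin at 16 h, the 3 chains of presenting pairs and the invariant chain. H2-Aa, the alpha chain, had 32.9, 49.9 and 29.1 CPM in V replicates 1 to 3 and 14.9, 14.6 and 20.6 CPM in DOX. H2-Ab1, its beta chain, had 24.8, 39.9 and 26.1 CPM in V and 10.5, 9.73 and 15.4 CPM in DOX. Every DOX library was below every V library for both genes, V replicate 2 was the highest of all and DOX replicate 3 the highest of its group. H2-Eb1, the beta chain of the other pair, had 23.9, 35.8 and 25.5 CPM in V and 11.6, 13.1 and 18.6 CPM in DOX. Cd74, the invariant chain, had 76.0, 103.7 and 74.5 CPM in V and 40.3, 39.6 and 57.8 CPM in DOX. Neither gene overlapped between the groups, and the same V and DOX libraries were highest. Libraries that do not overlap in the lower direction were found for 28% of all genes.

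The log2 fold change of DOX over V at 16 h was -1.35 ± 0.29 (SE) for H2-Ab1, or 2.55-fold lower, with an adjusted p of 0.00734 in edgeR's quasi-likelihood test over all 10393 genes. It was -1.16 ± 0.29 for H2-Aa (edgeR adjusted p = 0.0135) and -0.98 ± 0.26 for H2-Eb1 (edgeR adjusted p = 0.0164). Cd74 changed least, by -0.88 ± 0.23 or 1.85-fold lower (edgeR adjusted p = 0.0149). So 4 of 4 measured members fell, where 16.6% of all genes were called lower, and the members' median log2 change was -1.07 against 0.02 for all genes. H2-Ab1 was called lower whichever single library was left out (edgeR adjusted p from 0.0136 to 0.031). The calls of the others depended on single libraries: without V replicate 2 only H2-Ab1 was called, and without DOX replicate 1 or DOX replicate 2 only H2-Aa and H2-Ab1 were, the missed values having edgeR adjusted p from 0.0514 to 0.0621.

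**Figure D1:**
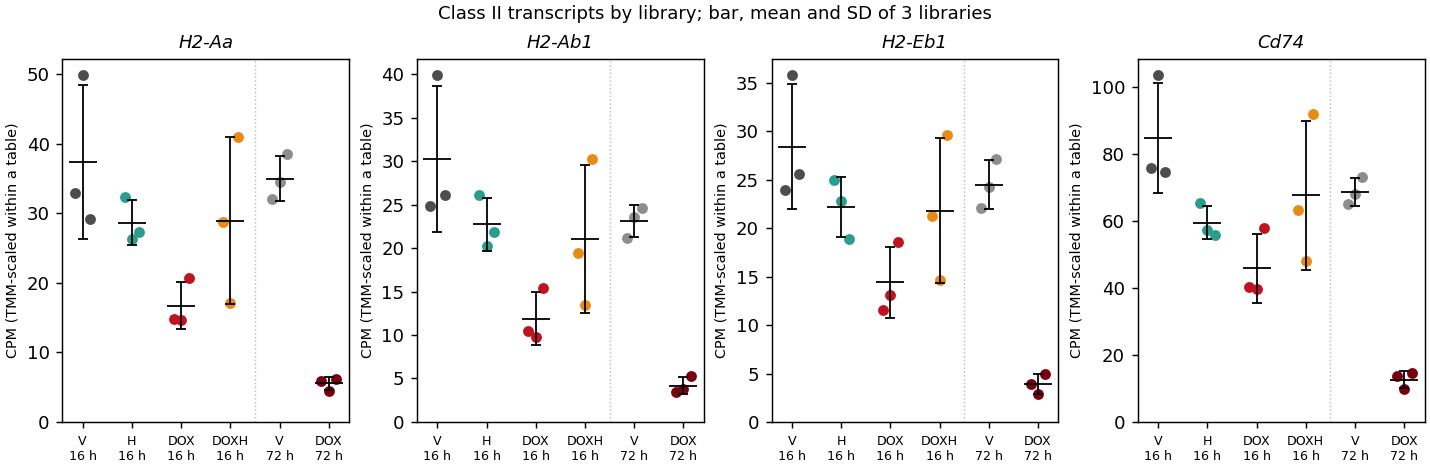
Level of H2-Aa, H2-Ab1, H2-Eb1 and Cd74 in CPM (linear axis from 0) in each library (points), with the mean and SD of 3 libraries per group (bars); the dotted line separates the tables made at 16 h and 72 h, which were scaled separately. The DOX points lie below all V points of the same time for each gene, and the DOXH points spread from the DOX range into the V range.

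Hesperitin alone gave no call for any class II member at 16 h. H2-Aa had 32.3, 26.3 and 27.2 CPM in H replicates 1 to 3, which overlapped V (log2 fold change -0.38 ± 0.28, edgeR adjusted p = 0.875). H2-Ab1 had 26.1, 20.3 and 21.8 CPM in H, also overlapping V (-0.41 ± 0.27, edgeR adjusted p = 0.861). H2-Eb1 had 25.0, 22.8 and 18.8 CPM in H and overlapped V as well (-0.36 ± 0.25, edgeR adjusted p = 0.865). Only Cd74, at 65.3, 57.4 and 55.9 CPM, had every H library below every V library, as did 7.53% of all genes. Its log2 change of -0.51 ± 0.22 did not pass (edgeR adjusted p = 0.776). In this comparison edgeR called 0 of 10393 genes (0%), with 664 at an unadjusted p under 0.05, among them 1 member, Cd74; DESeq2 called 13 genes and limma voom 0, and neither called a member.

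With both agents, class II levels ranged from those of DOX to those of V, and their mean log2 level was spread more widely over the 3 DOXH libraries than over those of any other group at 16 h. H2-Aa had 28.8, 17.03 and 41.0 CPM in DOXH replicates 1 to 3, and H2-Ab1 had 19.4, 13.5 and 30.3 CPM. H2-Eb1 had 21.2, 14.7 and 29.6 CPM and Cd74 had 63.3, 48.1 and 91.9 CPM. For each gene replicate 3 lay among the V libraries, replicate 2 among the DOX libraries and replicate 1 between them, which is the order of these libraries in the first principal component too. Their cardiomyocyte markers followed the same order, at a mean of -0.44, -0.63 and -0.06 log2 CPM from the V mean, against -0.87 to -0.81 in DOX; their part in the class II values was not tested.

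Against DOX alone, the DOXH means were higher by 0.79 ± 0.29 log2 for H2-Aa (edgeR adjusted p = 0.194) and by 0.83 ± 0.29 for H2-Ab1 (edgeR adjusted p = 0.187). The differences were 0.60 ± 0.26 for H2-Eb1 (edgeR adjusted p = 0.25) and 0.56 ± 0.23 for Cd74 (edgeR adjusted p = 0.224). No member passed and all overlapped. In this comparison edgeR called 0 genes (0%), with 1958 at an unadjusted p under 0.05, among them all 4 members; DESeq2 called 390 genes and limma voom 0, but no member. The result turned on DOXH replicate 2: without it all 4 members were called higher than in DOX, with log2 differences of 0.76 for Cd74 to 1.06 for H2-Ab1 and edgeR adjusted p from 0.0214 to 0.0458, in a fit that called 1554 genes. The lowest differences of any left-out library were 0.28 for Cd74 to 0.47 for H2-Ab1.

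Against V, the DOXH means were lower by amounts that did not pass, from -0.52 ± 0.28 log2 for H2-Ab1 (edgeR adjusted p = 0.357) to -0.32 ± 0.23 for Cd74 (edgeR adjusted p = 0.467). Here edgeR called 0 genes (0%), with 1749 at an unadjusted p under 0.05 and no member among them; DESeq2 called 131 genes, none of them a member, and limma voom 0. Without DOXH replicate 3, H2-Ab1 was called lower than in V (edgeR adjusted p = 0.0461) in a fit with 1674 called genes. Against H, the differences were small, from -0.11 ± 0.28 for H2-Ab1 to 0.19 ± 0.23 for Cd74, and all 4 genes overlapped. In that comparison 0 members were called by edgeR, DESeq2 or limma voom, and none had an unadjusted p under 0.05; 0.154% of all genes were called by edgeR.

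The doxorubicin change in hesperitin-treated hearts and that in vehicle-treated hearts were compared in an interaction term. It was 1.07 ± 0.32 log2 for Cd74 (edgeR adjusted p = 0.345), 1.24 ± 0.40 for H2-Ab1 (edgeR adjusted p = 0.362), 1.18 ± 0.40 for H2-Aa (edgeR adjusted p = 0.366) and 0.96 ± 0.36 for H2-Eb1 (edgeR adjusted p = 0.377). A positive value means that the DOXH against H difference lay above the DOX against V difference. Here DOXH against H lay near 0, from -0.11 to 0.19. H itself lay below V by -0.51 to -0.36 log2, which was not called. None of the 4 interaction values passed. For this term edgeR called 0 genes (0%), with 1228 at an unadjusted p under 0.05, all 4 members among them; DESeq2 called 53 genes, no member, and limma voom 0. Without DOXH replicate 2, Cd74 (edgeR adjusted p = 0.0486) and H2-Aa (edgeR adjusted p = 0.0492) passed.

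**Figure D2:**
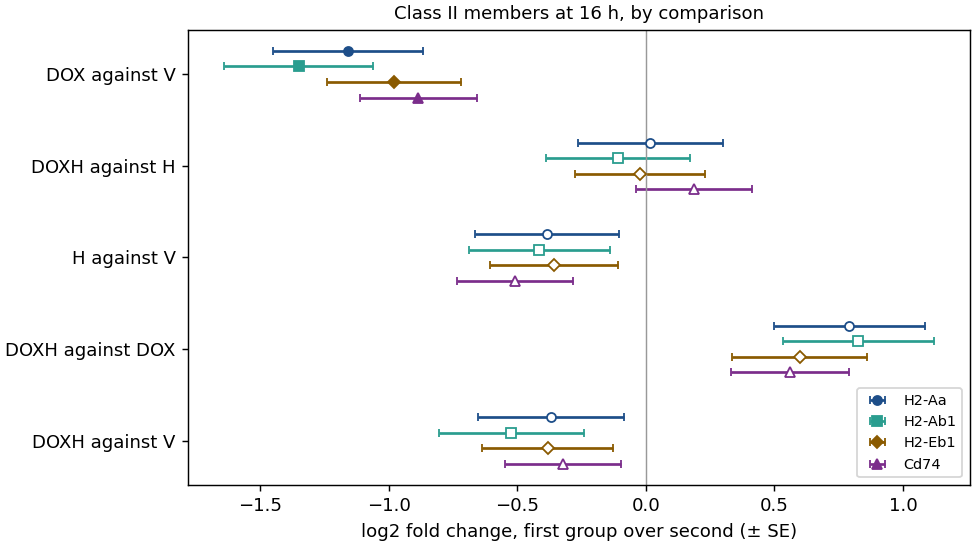
Log2 fold change with SE of the 4 class II genes in 5 comparisons at 16 h (horizontal axis, first group over second; filled symbols have an edgeR adjusted p under 0.05 over all genes, open symbols do not). Filled symbols appear only for DOX against V, from -1.35 to -0.88, and the DOXH against DOX values lie from 0.56 to 0.83.

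At 72 h the class II transcripts of DOX hearts were lower still, as a description. H2-Aa had 32.03, 34.4 and 38.5 CPM in V and 5.93, 4.45 and 6.24 CPM in DOX, the last value being the unnumbered library. H2-Ab1 had 21.1, 23.6 and 24.7 CPM in V and 3.42, 3.78 and 5.29 CPM in DOX. For both genes the highest DOX library was far below the lowest V library. H2-Eb1 had 22.1, 24.3 and 27.1 CPM in V and 3.92, 2.91 and 4.94 CPM in DOX. Cd74 had 65.0, 68.1 and 73.3 CPM in V and 13.6, 9.87 and 14.5 CPM in DOX. The groups did not overlap for any of the 4 genes, as in the lower direction for 32.2% of all genes. Counts behind these values were no smaller than 57 per library.

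The 72 h log2 fold changes were -2.65 ± 0.13 for H2-Aa, -2.64 ± 0.17 for H2-Eb1, -2.47 ± 0.16 for H2-Ab1 and -2.44 ± 0.13 for Cd74, or 6.30-, 6.22-, 5.56- and 5.43-fold lower. All 4 were called lower, in a comparison where 27.2% of 7703 genes were, and nothing is read from that count because this contrast helped to choose the genes. At 16 h the corresponding values were -1.16, -0.98, -1.35 and -0.88. The change of the difference between the times was not tested, since the tables were scaled separately.

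Set in order, the mean level of H2-Aa was 37.3 ± 11.1 CPM in V at 16 h, 35.0 ± 3.25 in V at 72 h, 28.9 ± 11.98 in DOXH, 28.6 ± 3.23 in H, 16.7 ± 3.39 in DOX at 16 h and 5.54 ± 0.957 in DOX at 72 h (SD, n = 3), across tables scaled apart. Neighbours among the first 4 means do not differ beyond their SDs, DOX at 16 h overlaps DOXH but neither V nor H within 1 SD, and DOX at 72 h lies below all. The proportions of the members shifted little next to their levels, but some shifted beyond the spread. Cd74 made up 47.2% ± 1.67 of the summed CPM of the 4 genes in V at 16 h, 51.7% ± 0.429 in DOX at 16 h, 45.5% ± 0.779 in V at 72 h and 48.1% ± 2.15 in DOX at 72 h (SD, n = 3). H2-Ab1 made up 15.7% to 17.4% in V and 12.6% to 13.7% in DOX at 16 h. At 16 h the DOX and V libraries did not overlap for either share, higher in DOX for Cd74 and lower for H2-Ab1. The lower H2-Ab1 share was not seen at 72 h, with 15.3% ± 0.367 in V and 15.9% ± 2.82 in DOX, and the libraries overlapped. The shares are parts of the same sum, so their shifts are not independent. Over the 12 libraries at 16 h, which share group and library scaling, the correlation of log2 CPM between pairs of members was 0.96 to 0.98, and 0.94 to 0.99 for deviations from the group means. The deviations show that libraries high for one member were high for the others inside a group as well.

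Most of the myeloid markers that passed rose where the class II genes fell. Of 28 macrophage and monocyte markers 15 were tested at 16 h, and 4 rose and 1 fell, where 15.6% of all genes were called higher. F13a1, a transglutaminase subunit of resident macrophages, rose by 0.79 ± 0.10 log2 (edgeR adjusted p = 0.00211), Mrc1, the mannose receptor, by 0.88 ± 0.12 (edgeR adjusted p = 0.00244) and Itgam, an integrin of myeloid cells, by 1.37 ± 0.29 (edgeR adjusted p = 0.00673). Csf1r, the receptor for the macrophage growth factor M-CSF, fell from 33.8, 40.7 and 33.3 CPM in V to 21.6, 22.9 and 26.2 CPM in DOX, by 0.61 on the log2 scale (edgeR adjusted p = 0.0283). It was the only marker of the list that was called lower, as the class II genes were. The list's median log2 change was 0.35 against 0.02 for all genes.

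At 72 h 13 of these markers were tested, and 10 rose and 1 fell, where 26.5% of all genes were called higher. One of the 10, Chil3, had at most 2 counts in a V library and entered the table through the DOX group. Lyve1, a hyaluronan receptor of resident macrophages, had 17.7, 21.4 and 22.0 CPM in V and 56.1, 54.2 and 41.5 CPM in DOX, higher by 1.31 ± 0.13 log2 (edgeR adjusted p = 9.33e-05). Csf1r was again lower, at -0.40 ± 0.09 (edgeR adjusted p = 0.00448). The list's median was 0.71, against 0.01 for all genes. Of the pan-leukocyte and myeloid adaptor genes, 3 of 8 tested rose at 16 h (15.6% of all genes) and 4 of 6 at 72 h (26.5%), with the others not called; Laptm5, Fcer1g and Cd53 were higher at both times.

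Expressed as the mean log2 CPM of the 4 class II genes minus that of the macrophage markers (15 genes at 16 h and 13 at 72 h), V had 1.13 ± 0.18 and DOX -0.37 ± 0.32 at 16 h (SD, n = 3). H had 0.92 ± 0.07 and DOXH 0.48 ± 0.55. At 72 h V had 1.33 ± 0.06 and DOX -2.36 ± 0.14. The value in DOX minus that in V was -1.49 log2 at 16 h and -3.69 at 72 h. With the 12 macrophage genes in both tables, which leave out Chil3, it was -1.49 and -3.29. This choice was made after seeing the data, and the 72 h value contains the class II levels that chose the set. In the 3 DOXH libraries the mean over the 15 macrophage markers barely differed, from 0.20 to 0.22 log2 above the V mean. Their class II levels were -0.43, -0.98 and 0.11 from the V mean. Single macrophage markers were not flat across these libraries: Csf1r ran from 22.7 to 40.7 CPM and Cd14 from 5.39 to 19.9 CPM. The steady mean therefore does not show that each marker was steady, and the part of single markers in the class II values was not tested.

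**Figure D3:**
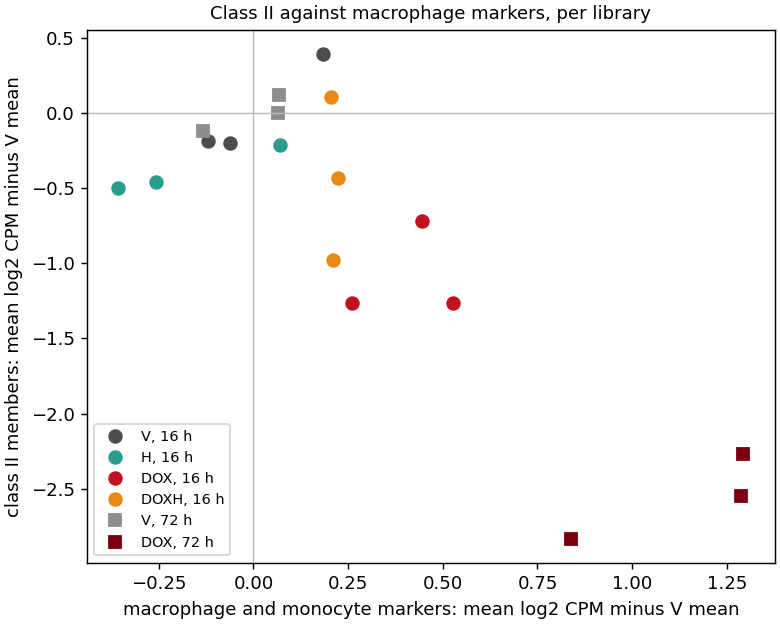
Mean log2 CPM of the 4 class II genes (vertical axis) against that of the macrophage and monocyte markers (horizontal axis), each relative to the V mean of its own table; each point is a library, circles at 16 h and squares at 72 h. The DOX libraries lie to the lower right, at 0.26 to 0.53 and -1.27 to -0.72 at 16 h and at 0.84 to 1.29 and -2.83 to -2.27 at 72 h; with the 12 macrophage genes in both tables the 72 h DOX libraries lie at 0.47 to 0.89 on the horizontal axis.

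Markers of the other cells that carry class II were scarce. Of 12 dendritic cell markers 2 were listed at 16 h, Zbtb46 and Naaa, with a summed level of 27.5 to 30.7 CPM in V and 27.3 to 32.8 CPM in DOX, and neither was called. At 72 h Zbtb46 alone was listed and was higher in DOX by 0.44 ± 0.14 log2 (edgeR adjusted p = 0.0245). Of 12 B cell markers Ebf1 alone was listed, at 16.7 to 18.5 CPM in V and 13.8 to 18.1 CPM in DOX at 16 h, and was called at neither time. Ebf1 and Zbtb46 are also made by other cells of the heart. Defining dendritic and B cell genes such as Flt3, Xcr1 and Ms4a1, and the 13 T and NK cell markers, were not analysed here, so a part of these cells in the class II values was not tested. The 9 neutrophil markers tested at 16 h summed to 27.2 to 84.6 CPM in V and 158 to 290 CPM in DOX, and 2 of the 9 were called, both higher (15.6% of all genes). At 72 h the 4 tested summed to 1.98 to 3.38 CPM in V, where they were near 0, and to 48.0 to 228 CPM in DOX. Each had at most 25 counts in a V library, so they may be listed at 72 h only through the DOX group. The rest of the 9 were not tested at 72 h, so nothing is read from this rise. All 12 cardiomyocyte markers were called lower in DOX at 16 h (16.6% of all genes) and 10 of 12 at 72 h (27.2%), with medians of -0.78 and -1.15 log2. The part of either list in the class II values was not tested.

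Of 7 factors that act on the class II promoter tested at 16 h, 2 rose and 1 fell, where 15.6% and 16.6% of all genes were called higher and lower. Rfx5, the DNA-binding subunit of RFX, had 6.65, 5.89 and 6.81 CPM in V and 13.6, 9.90 and 13.1 CPM in DOX, higher by 0.92 ± 0.22 log2 (edgeR adjusted p = 0.011). Nfyb, a subunit of NF-Y, rose by 0.64 ± 0.14 (edgeR adjusted p = 0.00691) and Nfyc, its partner, fell by 0.61 on the log2 scale (edgeR adjusted p = 0.0149). Rfxap, Rfxank, Nfya and Creb1 were not called, with log2 values from -0.07 to 0.21. At 72 h 5 were tested, where 26.5% and 27.2% of all genes were called higher and lower. Rfxank (0.42) and Nfyb (0.31) were higher, Nfyc (-0.31) was lower, and Nfya and Creb1 were not called. The Rfx5 libraries of the DOX and V groups did not overlap at 16 h.

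In interferon-gamma signalling, the receptor chain Ifngr2 had 150, 150 and 139 CPM in V and 64.8, 97.6 and 101 CPM in DOX at 16 h, a log2 change of -0.74 ± 0.23 (edgeR adjusted p = 0.0293). At 72 h it had 147, 152 and 150 CPM in V and 45.1, 50.5 and 54.7 CPM in DOX, a log2 change of -1.58 ± 0.09 (edgeR adjusted p = 1.56e-05). The other receptor chain, Ifngr1, was not called at 16 h (-0.19 ± 0.13) and was higher at 72 h (0.49 ± 0.07). Of 9 genes of the pathway tested at 16 h, 2 rose, the kinase Jak2 (0.48) and the transcription factor Irf8 (0.88), and 1 fell, Ifngr2, beside the same shares of all genes. At 72 h Ifngr1, Irf2 and the feedback inhibitor Socs3 were higher, and Ifngr2 and the kinase Jak1 were among the lower genes. Of 8 tested at 72 h, 3 were called higher and 3 lower, where 26.5% and 27.2% of all genes were. Irf1, a transcription factor that acts on the Ciita gene, was not called at 16 h (0.36 ± 0.31).

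Of 9 genes of the list of enzymes that prepare peptide and cut the invariant chain, with an inhibitor of cathepsins, 6 were not called at 16 h and 3 rose, where 15.6% of all genes did: Ctss, the cathepsin that makes the last cuts of the invariant chain (0.52 ± 0.16), Ctsl (0.64 ± 0.21) and the asparaginyl endopeptidase Lgmn (0.45 ± 0.10). Ctss had 12.4, 15.9 and 12.1 CPM in V and 22.2, 16.7 and 19.1 CPM in DOX, and the groups did not overlap. At 72 h 5 of 8 were higher (26.5% of all genes), the enzymes Ctss, Ctsl, Ctsz and Ctsh and the inhibitor Cst3, by 0.47 to 1.03, and Ctsb was lower at -0.28. Marchf8, a ubiquitin ligase that can send class II to lysosomes, was not called at 16 h (-0.10 ± 0.08) and was lower at 72 h (-0.40 ± 0.07). Cd274, the ligand PD-L1, was higher at 16 h (1.34 ± 0.43, edgeR adjusted p = 0.0363) and Icosl, the ligand of ICOS, at 72 h (0.86 ± 0.14).

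Of 11 genes of MHC class I presentation, which serves CD8 T cells, 2 rose and 9 were not called at 16 h, a share near the 15.6% of all genes called higher. Tap1, a subunit of the peptide transporter, had 7.04, 7.62 and 6.07 CPM in V and 21.9, 27.6 and 30.3 CPM in DOX, higher by 1.94 ± 0.30 log2 (edgeR adjusted p = 0.00269). Psmb8, an immunoproteasome subunit, rose by 0.76 ± 0.25 (edgeR adjusted p = 0.0369). At 72 h 3 of 7 were higher (26.5% of all genes) and 2 lower (27.2%), with both class I heavy chains H2-K1 and H2-D1 at 0.69 ± 0.11 and Psmb10 and the peptide-trimming enzyme Erap1 each at -0.52. H2-K1 and H2-D1 are near-identical in parts, so reads may be split between them.

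**Figure D4:**
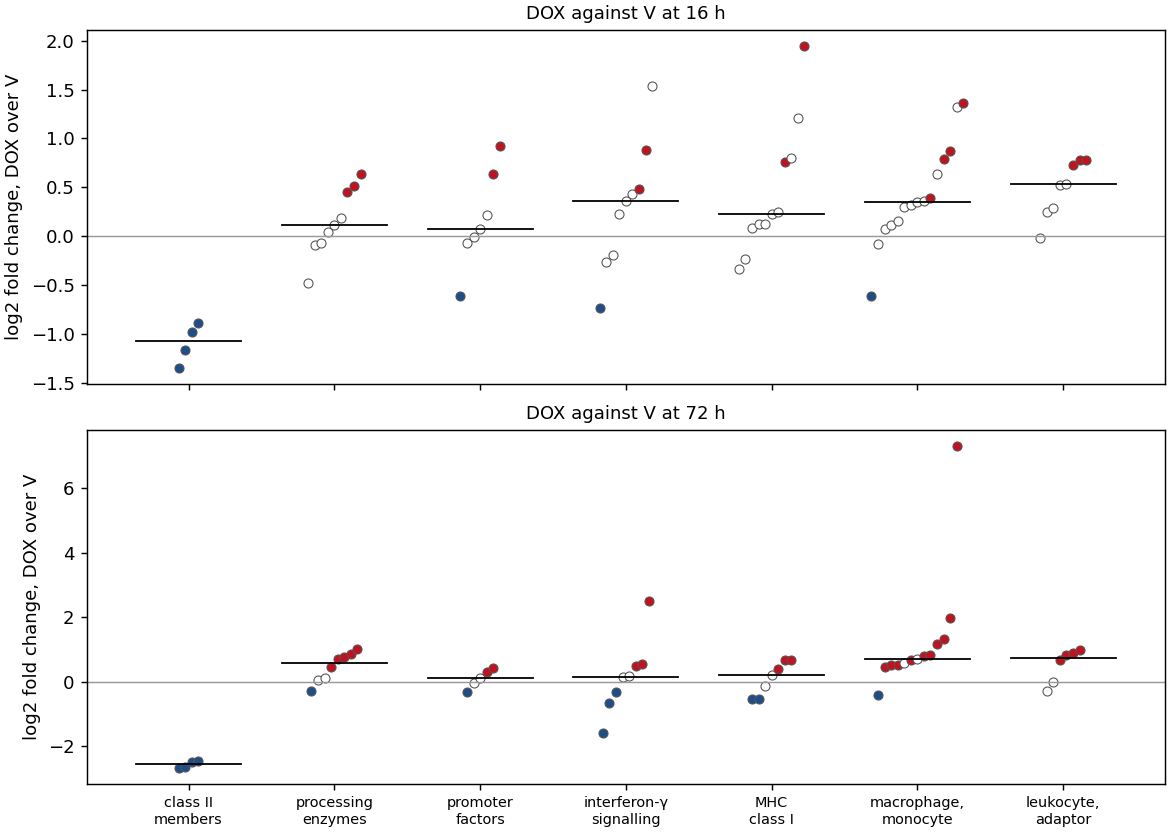
Log2 fold change of DOX over V for every tested gene of 7 lists (points) at 16 h and 72 h; filled points have an edgeR adjusted p under 0.05 over all genes, red higher and blue lower, and the line is the list's median. The class II genes lie at -1.35 to -0.88 and at -2.65 to -2.44, with list medians of -1.07 and -2.56, while the medians of the other 6 lists lie above 0 at both times.

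The genes whose level followed the class II mean most closely were found by Pearson correlation over 18 libraries, each value taken relative to the V mean of its table, among 7403 genes. The closest non-members were Pcsk6 (r = 0.97), Rab22a, Jak1 and Mylk4 (each r = 0.95), then Ndufab1, R3hdm2, Wnk1 and E2f6. These values are a description: the libraries share their treatment groups, and the 72 h difference weighs heavily in r. Over the 12 libraries at 16 h alone, r was 0.91 for Pcsk6 and 0.78 to 0.84 for the others. Pcsk6, a proprotein convertase, had a log2 change of DOX over V of -0.68 at 16 h and -1.41 at 72 h. It was picked for its likeness to a mean that is itself lower in DOX, so no test is read from these changes.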

How the data were processed

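Poly(A)-selected RNA of mouse hearts was sequenced, with RNA integrity above 8 per the labels. The authors deposited expected counts per gene at 16 h and at 72 h; RSEM, DESeq2 and GRCm38 (mm10) are named per the submitters' processing notes. For tool versions, annotation, strand setting and gene filter, the answer is: not given in the sources used here. Library columns were matched to samples by name; 6 columns at 72 h have names that match none of the samples' labels and were not analysed here, which leaves no hesperitin group at 72 h, and 1 DOX column at 72 h entered as a replicate without a number. Of the gene identifiers at 72 h, 15 have no symbol and were kept.

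Expected counts were rounded to whole numbers, genes with low counts removed by filterByExpr and libraries scaled by TMM. At 16 h all 10393 listed genes passed that filter. Group means were fitted by edgeR 4.0.16 (R 4.3.3) with robust quasi-likelihood, separately for 12 libraries at 16 h and 6 at 72 h, with p adjusted by Benjamini-Hochberg over all genes tested and 0.05 as the threshold. The SE of a log2 fold change is its size divided by the square root of F, and a prior count of 2 was used for log2 CPM. DESeq2 1.42.0, limma 3.58.1, other scalings and filters, a replicate block and left-out libraries were alternatives. The fits were tested on simulated data. The members and gene lists were chosen with earlier results of these data known. Named are the class II genes and the genes of their pathway lists, the 4 genes of smallest p in each other list, and the 8 genes most like the class II mean. A few results on genes of these lists are not reported here. Motif positions count from the annotated start. Replicate pairs differed beyond counting noise (chi-square per gene at least 4.14).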

Additional observations from a re-analysis of the deposited data

How the results depend on the processing

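The lower level of the 4 class II genes in DOX was called at 16 h under RLE or upper-quartile scaling and with a mean of at least 5 CPM. It was also called in DESeq2 and in limma voom. Without a filter on low counts it was called too, but all 10393 genes listed at 16 h pass the filter, so that fit repeats the main one. The same alternatives gave the calls at 72 h. The 72 h calls, here and below, are a description, because that contrast helped to choose the genes. Leaving out single libraries gave 1 to 4 members called and 1928 to 2409 genes called for DOX against V at 16 h, and 4 members and 3397 to 4022 genes at 72 h. The other comparisons moved more: with a library left out, genes called ranged from 0 to 1554 for DOXH against DOX (members 0 to 4), 0 to 2298 for DOXH against H, 0 to 1674 for DOXH against V (members 0 to 1), 0 to 47 for H against V and 0 to 254 for the interaction (members 0 to 2). DESeq2 called 13 genes for H against V, 390 for DOXH against DOX, 718 for DOXH against H, 131 for DOXH against V and 53 for the interaction, where edgeR called 0, 0, 16, 0 and 0. For DOXH against H, upper-quartile scaling gave 55 genes, limma voom 32 and a fit of only those groups 0; fits of only the groups compared gave 1 gene each for DOXH against DOX and DOXH against V.

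The DOXH against H differences lie near 0 and changed sign: H2-Aa was -0.061 in limma voom and -0.0086 with the replicate block. With a library left out, they ran from -0.32 to 0.28 for H2-Aa, from -0.46 to 0.13 for H2-Ab1, from -0.30 to 0.19 for H2-Eb1 and from -0.096 to 0.38 for Cd74. The class II minus macrophage difference at 72 h was -3.00 with a core list of 6 macrophage genes (5 of them with values at 72 h) and -3.29 with the macrophage genes in both tables, a choice made after seeing the data, in place of -3.69. The cause was not tested for any of these.

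The correlation of deviations between same-numbered libraries ran from -0.42 to 0.25 over 20 pairs, with 6 above 0.1. At 72 h it was 0.20 for number 1 and 0.24 for number 2. Pairs with different numbers are not set beside these values, so the check cannot settle whether replicate numbers pair the libraries. The replicate block gave 7 genes for DOXH against H in place of 16, 3064 for DOX against V at 16 h in place of 3352 and 3818 at 72 h in place of 4133, with all 4 class II genes called in both. The depth of 9255651 to 20587578 counts leaves 57 to 1284 counts per library behind each class II value, and the 3 libraries per group limit the precision more than counting does.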
